A study of Solanum lycopersicum with 24 samples.

Results

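LE25 (transcript NM_001309385.1) and AKR4B (transcript NM_001353492.1) are 2 tomato genes whose mRNAs stood under 10 TPM (a relative abundance, defined below) in total RNA of control leaves and among the most abundant in hardened leaves. They were chosen by their rows in a table of 45845 RefSeq transcripts, because an earlier look at total RNA had found them to rise most in hardened against control leaves among transcripts with a gene symbol. That comparison is therefore described below and not tested, and every other comparison that includes Hardening or Control libraries of total RNA shares them with that choice. Each gene had 1 transcript in the table, and 34881 of the transcripts could be paired with a gene.

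LE25 encodes a late embryogenesis abundant (LEA) protein. LEA proteins are small and very hydrophilic, accumulate in drying seeds and in leaves short of water, and are known to protect proteins and membranes when cells lose water, as also happens in the cold. Many of them are induced by abscisic acid, the hormone of drought and cold responses. AKR4B encodes an aldo-keto reductase, an enzyme family that uses NADPH to reduce reactive aldehydes and ketones, including those formed when membrane lipids are oxidised.

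Leaves of the YaLF line were taken from plants 28 days old and gave 24 libraries, namely 4 conditions in 3 RNA fractions with 2 libraries each. Combo plants were hardened in the cold for 5 days and then cooled at 0 °C for 2 h, Hardening plants received only the 5 days, Stress plants only the 2 h at 0 °C, and Control plants neither. The labels give 6 °C for hardening and the study's methods 4 °C. Control plants were kept at 22 °C by the methods. Polysomes (poly) are mRNAs that carry several ribosomes, monosomes (mono) carry a single ribosome, and total RNA (total) is the whole poly(A) pool of the leaf. The leaves of Combo and Stress plants were taken 2 h after those of Hardening and Control plants on the day of sampling. Time of day and the 2 h at 0 °C cannot be told apart where these pairs are compared. The 2 libraries of a group are called biological replicates in the column headings of the deposited table and technical repeats in the methods, and the sample labels only number them. The p-values measure the spread between these libraries, which may be technical.

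The values are TPM, a relative abundance that is per transcript length and sums to 1000000 in each library. TPM keep no sequencing depth, so no counting error is given. Between 20551 and 21698 transcripts reached 1 TPM in total RNA libraries, against 12922 to 18415 in the ribosome-bound ones. The 10 most abundant transcripts held 55.7 to 68.9% of the TPM in ribosome-bound Control libraries and 10.3 to 47.3% in the other ribosome-bound libraries. Log2 changes are therefore of TPM divided by a library factor, plus 1, and a transcript was called Up or Down where its log2 change was beyond 1 in size with a limma adjusted p under 0.05. A pseudocount of 1 understates the change of a transcript near 1 TPM. The 6 leaf markers measured (rbcS1, PSBO and 4 chlorophyll a/b-binding genes) summed to 35272 to 38539 TPM in total RNA of Stress and Control leaves. Their sums were far lower in total RNA of Combo (1781 to 1888 TPM) and Hardening (2455 to 2515 TPM). They ranged from 1114 to 67841 TPM over polysome libraries and from 2218 to 66474 TPM over monosome libraries. The 6 transcripts of other organs (pollen, fruit) summed to at most 3.44 TPM in any library.

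Before the results, a conflict between labels and values has to be given. For each label, the deviation of every transcript from its fraction's mean was compared between ribosome-bound and total RNA libraries, leaving LE25 and AKR4B out (19289 transcripts, which share libraries and are not independent). Polysome libraries labelled Hardening had a Pearson correlation of -0.71 with total RNA of Hardening and of 0.77 with total RNA of Stress. Those labelled Stress had a correlation of -0.66 with total RNA of Stress and of 0.62 with total RNA of Hardening. Monosome libraries behaved alike, at -0.68 with the same label for Hardening and -0.66 for Stress. Combo and Control had positive correlations with total RNA of their own label in both fractions, between 0.62 and 0.80. For 2 of these groups the correlation with a group of the same hardening state was slightly higher than that with the own label. Combo monosomes had 0.695 with total RNA of Hardening and 0.679 with that of Combo, and Control polysomes had 0.692 with total RNA of Stress and 0.680 with that of Control. The values do not say which fraction carries the wrong label, or whether any does. Libraries are named by their labels throughout, nothing was reassigned, and Combo_vs_Control is the comparison that holds no library labelled Hardening or Stress. Comparisons of total RNA that use libraries labelled Hardening or Stress rest on the same unsettled labels. The words hardened and unhardened follow the labels there. In bulk leaf RNA, a larger share of the cells that express a gene cannot be told apart from more mRNA per cell.

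**Figure D1:**
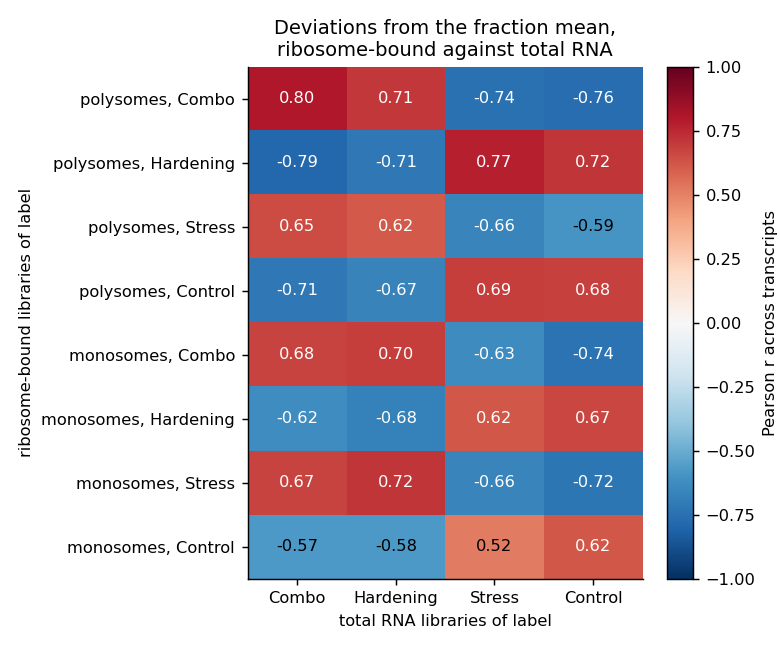
Pearson correlation, across 19289 transcripts, of each ribosome-bound group (rows) with each total RNA group (columns), taken on deviations from the fraction's mean. The rows labelled Hardening and Stress are negative against their own label (-0.71 and -0.66 in polysomes, -0.68 and -0.66 in monosomes), and those labelled Combo and Control are positive against theirs.

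In total RNA, LE25 stood at 1883 and 1727 TPM in Combo leaves, 1003 and 861 TPM in Hardening, 0.925 and 1.43 TPM in Stress, and 1.54 and 2.66 TPM in Control. The 4 libraries of hardened plants were high and the 4 of unhardened plants low, and the lowest high value was 324 times the highest low value. LE25 ranked 30 and 38 among all transcripts in Combo and 112 and 141 in Hardening, against 18637 and 16139 in Control. By mean TPM the order was Combo, Hardening, Control and Stress. Control and Stress were both at or under 2.66 TPM, and their difference did not pass the test given below.

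AKR4B had 1706 and 1745 TPM in total RNA of Combo, 1869 and 1812 TPM in Hardening, 3.83 and 4.35 TPM in Stress, and 9.71 and 9.01 TPM in Control. By mean TPM the order was Hardening, Combo, Control and Stress, and the difference between Hardening and Combo did not pass the test given below. The libraries of a group differed by at most 1.14-fold for AKR4B, against up to 1.73-fold for LE25. AKR4B ranked between 29 and 38 in the libraries of hardened plants, and between 9157 and 14661 in those of unhardened plants. As a description of the values that chose the genes, mean TPM in Hardening was 444 times that in Control for LE25 and 197 times for AKR4B.

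**Figure D2:**
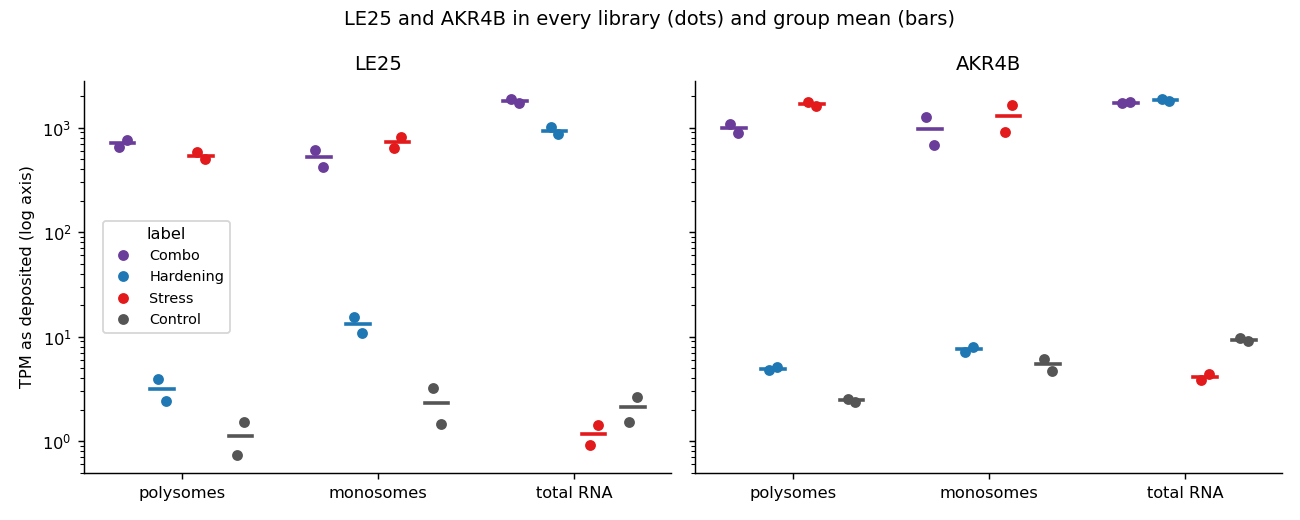
TPM as deposited (log axis) of LE25 and AKR4B in each of the 24 libraries (dots) with the group mean (bars), by fraction and label. In total RNA the libraries labelled Combo and Hardening are high (861 TPM or more), whereas in polysomes and monosomes those labelled Combo and Stress are high (421 TPM or more).

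Combo_vs_Stress asked how leaves labelled as hardened and unhardened differed after the same 2 h at 0 °C. Its libraries were not used in the choice of the genes, but the label Stress is in conflict. The SE and adjusted p also rest on a spread shared by all total RNA libraries, including the Hardening and Control libraries that chose the genes. Both genes were Up. LE25 averaged 1805 ± 110 TPM in Combo and 1.18 ± 0.355 TPM in Stress (SD, n = 2 each), a log2 change of 9.49 (SE 0.21, limma adjusted p = 6.46e-07). AKR4B averaged 1726 ± 27.2 TPM in Combo and 4.09 ± 0.369 TPM in Stress, a log2 change of 8.16 (SE 0.08, limma adjusted p = 1.10e-07). Of the 22013 transcripts tested in total RNA, 15.4% were Up and 20.3% Down in this comparison. Combo_vs_Control, which shares its Control libraries with the choice of the genes, gave log2 changes of 8.91 for LE25 and 7.03 for AKR4B, both Up, as were 15.6% of transcripts. Leaf markers moved the other way, with a summed level of 1888 and 1781 TPM in the Combo libraries, against 38539 and 35272 TPM in Stress, and all 6 were Down. Their part in the change of LE25 and AKR4B was not tested.

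The effect of 2 h at 0 °C was measured in unhardened and in hardened leaves, by label. Both comparisons use total RNA libraries (Control or Hardening) that took part in the choice of the genes. In unhardened leaves (Stress_vs_Control), AKR4B was Down, at 4.09 ± 0.369 TPM in Stress and 9.36 ± 0.493 TPM in Control (SD, n = 2 each), a log2 change of -1.13 (SE 0.08, limma adjusted p = 0.000598). LE25 averaged 1.18 ± 0.355 TPM in Stress and 2.10 ± 0.793 TPM in Control, with a log2 change of -0.58 (95% interval -1.09 to -0.07, limma adjusted p = 0.123), which did not pass the test. In this comparison 1.94% of transcripts were Down and 2.37% Up.

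In hardened leaves (Combo_vs_Hardening), LE25 averaged 1805 ± 110 TPM in Combo and 932 ± 101 TPM in Hardening. Its log2 change of 0.99 (95% interval 0.48 to 1.499, limma adjusted p = 0.024) was under the size that a call requires. Leaving out any 1 of the 4 libraries gave 0.84 to 1.10, with limma adjusted p from 0.0677 to 0.119, so that it was not called there either. AKR4B averaged 1726 ± 27.2 TPM in Combo and 1840 ± 39.96 TPM in Hardening, a log2 change of -0.06 (95% interval -0.25 to 0.13, limma adjusted p = 0.661). The ratio of LE25 to AKR4B, both per length, was 1.10 and 0.99 in the Combo libraries and 0.54 and 0.48 in the Hardening libraries of total RNA. Up calls covered 1.91% of transcripts in Combo_vs_Hardening. The Hardening libraries of this comparison were among those that chose the genes.

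The difference between the 2 effects of cooling (the interaction) was 1.57 for LE25 (SE 0.30) and 1.07 for AKR4B (SE 0.11) on the log2 scale. It contains the Hardening and Control libraries of total RNA that chose the genes, so that these values are a description and support nothing. Past the size and adjusted p of a call in the same direction were 3.17% of transcripts. LE25 had 1.39 to 1.58, with limma adjusted p above the threshold (0.0632 to 0.0736), when Combo library 1, Combo library 2, Hardening library 2 or Stress library 1 was left out. AKR4B had 0.99 without Stress library 1 and 0.93 without the library factors, both under the size of a call. In a fit of all 24 libraries the values were 1.49 and 1.01, with a limma adjusted p of 0.139 for both.

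**Figure D3:**
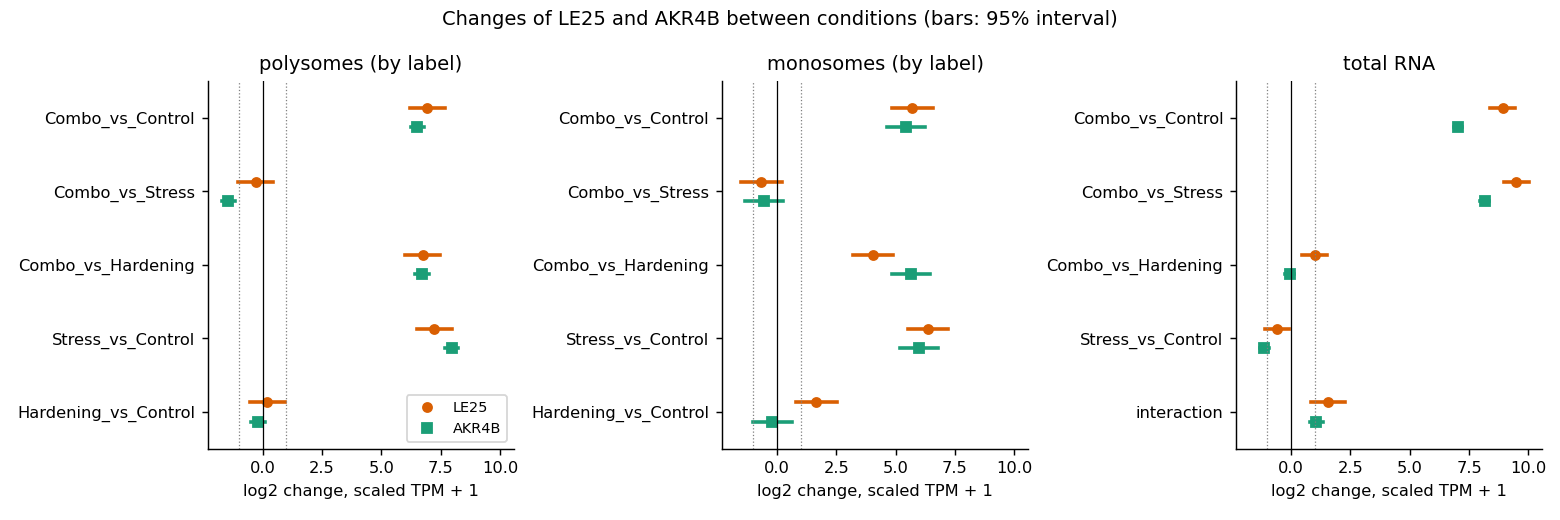
Log2 changes (points) with 95% intervals (bars) of LE25 and AKR4B between conditions in polysomes, monosomes and total RNA, with the size of 1 needed for a call as dotted lines. Combo_vs_Control lies between 5.45 and 8.91 in all 3 fractions, while Combo_vs_Stress is 8.16 or more in total RNA and -0.29 or less in the ribosome-bound fractions as labelled (0.39 for LE25 in polysomes without the library factors).

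On polysomes, LE25 had 648 and 765 TPM in Combo, 3.92 and 2.43 TPM in libraries labelled Hardening, 583 and 497 TPM in those labelled Stress, and 0.735 and 1.52 TPM in Control. AKR4B had 1082 and 892 TPM in Combo, 4.80 and 5.10 TPM under the label Hardening, 1754 and 1608 TPM under Stress, and 2.54 and 2.39 TPM in Control. By these labels, the high polysome libraries were Combo and Stress, where the high total RNA libraries were Combo and Hardening. The lowest high value was 127 times the highest low value for LE25 and 175 times for AKR4B, so that no library was intermediate.

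Combo_vs_Control in polysomes used no library of the choice. LE25 averaged 707 ± 82.7 TPM in Combo and 1.13 ± 0.554 TPM in Control (SD, n = 2 each), and AKR4B 987 ± 134 TPM in Combo and 2.47 ± 0.102 TPM in Control. Both were Up, with log2 changes of 6.94 (SE 0.31, limma adjusted p = 1.69e-05) and 6.50 (SE 0.12, limma adjusted p = 8.68e-07), as were 17.6% of the 17767 transcripts tested. Without the library factors these changes were 8.40 and 8.15, and the median over all transcripts was 1.44 in place of 0.01. Fitted without the libraries labelled Hardening and Stress, a fit chosen after the conflict was seen, they were 6.95 and 6.54.

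The other polysome comparisons rest on the labels in conflict. Between libraries labelled Stress and Control, LE25 changed by 7.23 and AKR4B by 7.96 on the log2 scale, both Up, as were 18.5% of transcripts. Between Combo and libraries labelled Hardening, the changes were 6.74 and 6.71, again Up, with 15.2% of transcripts. Hardening_vs_Control by label had 1.84% of transcripts Up and 2.34% Down. It gave 0.19 for LE25 (95% interval -0.55 to 0.94) and -0.20 for AKR4B (95% interval -0.48 to 0.08), neither of which passed the test. These values turn on the library factors, without which they were 0.98 for LE25 (limma adjusted p = 0.0134) and 0.78 for AKR4B (limma adjusted p = 0.00354), both under the size of a call. Mean TPM as deposited of AKR4B was 4.95 under Hardening and 2.47 in Control. Between Combo and libraries labelled Stress, AKR4B was Down at -1.45 (SE 0.12, limma adjusted p = 0.00127), as were 5.78% of transcripts, and this call was lost at -0.77 without the library factors. LE25 had -0.29 (95% interval -1.03 to 0.45), against 0.39 without the factors, and its mean TPM as deposited was 707 in Combo and 540 under Stress. No direction is therefore given for LE25 here.

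Monosomes repeated the polysome pattern at a larger spread. LE25 had 614 and 421 TPM in Combo, 15.3 and 10.8 TPM in libraries labelled Hardening, 637 and 820 TPM in those labelled Stress, and 3.20 and 1.46 TPM in Control. AKR4B had 1256 and 688 TPM in Combo, 7.12 and 7.94 TPM under the label Hardening, 898 and 1655 TPM under Stress, and 6.10 and 4.73 TPM in Control. Combo and Stress values overlapped for AKR4B, and the 2 libraries of either group differed by more than 1.8-fold. The lowest high value was still 27.4 times the highest low value for LE25 and 86.7 times for AKR4B.

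Combo_vs_Control in monosomes gave log2 changes of 5.71 for LE25 (SE 0.36) and 5.45 for AKR4B (SE 0.34), both with a limma adjusted p of 0.000161. Both were Up, as were 20.2% of the 17387 transcripts tested. LE25 alone of the 2 genes was Up between monosome libraries labelled Hardening and Control, at 1.67 (SE 0.36, limma adjusted p = 0.0363, with 6.87% of transcripts Up), against -0.19 for AKR4B (95% interval -0.997 to 0.62). That the genes differ here was not tested. The LE25 call was lost when either Hardening library was left out (1.41 and 1.95), without Control library 2 (1.24), and with no filter on low values. Libraries labelled Stress against Control gave 6.37 and 5.99, and Combo against libraries labelled Hardening 4.04 and 5.64. All 4 were Up, with 19.0% and 11.0% of transcripts. Combo_vs_Stress by label gave -0.66 for LE25 and -0.54 for AKR4B, with neither past the test. Of the 17387 transcripts, 0 were Up and 1 was Down there, so the lack of a call is not particular to these genes.

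The translational ratio sets the polysome level of an mRNA against its total level in the same condition. In Combo it was below that of the median transcript (0.13) for both genes. LE25 had a log2 ratio of -0.92 (95% interval -1.57 to -0.27, limma adjusted p = 0.0421) and AKR4B of -0.38 (95% interval -0.59 to -0.17, limma adjusted p = 0.0153), both too small for a call. In Control the log2 ratios were 0.58 for LE25 and -0.15 for AKR4B, and neither passed the test. Over all transcripts 3.81% were Up and 5.41% Down in Combo, and 7.51% Up and 14.1% Down in Control. Taking Combo against Control, the ratio of AKR4B differed by -0.23 (95% interval -0.53 to 0.07). That of LE25 was Down, at -1.49 (SE 0.41, limma adjusted p = 0.0352), among 2.88% of the 20088 transcripts tested. This call was not stable: it was lost without Combo polysome library 1 or 2, Control polysome library 2, Combo total library 1 or 2, or Control total library 1, with values from -1.62 to -1.03. Signs and calls of these ratios depend on the library factors. Without them LE25 had -1.35 in Combo, which was then called, -0.54 in Control and -0.81 for Combo against Control, which was no longer called. AKR4B then had -1.58 in Control, a call, and 0.77 for Combo against Control (limma adjusted p = 0.00121). The Control levels of LE25, at or under 2.66 TPM, lie where the pseudocount weighs most. Control libraries of total RNA also took part in the choice of the genes, which favours a negative difference between Combo and Control.

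Over the libraries labelled Hardening, the log2 ratio of polysomes to total RNA was -6.95 for LE25 and -7.38 for AKR4B, both Down, as were 19.4% of transcripts. Over those labelled Stress it was 8.57 and 9.08, both Up, as were 20.9%. These ratios divide groups whose labels and values were in conflict, and the total RNA libraries labelled Hardening also chose the genes. Among the polysome to total ratios, those under these 2 labels are the largest in size for both genes, and they have opposite signs.

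**Figure D4:**
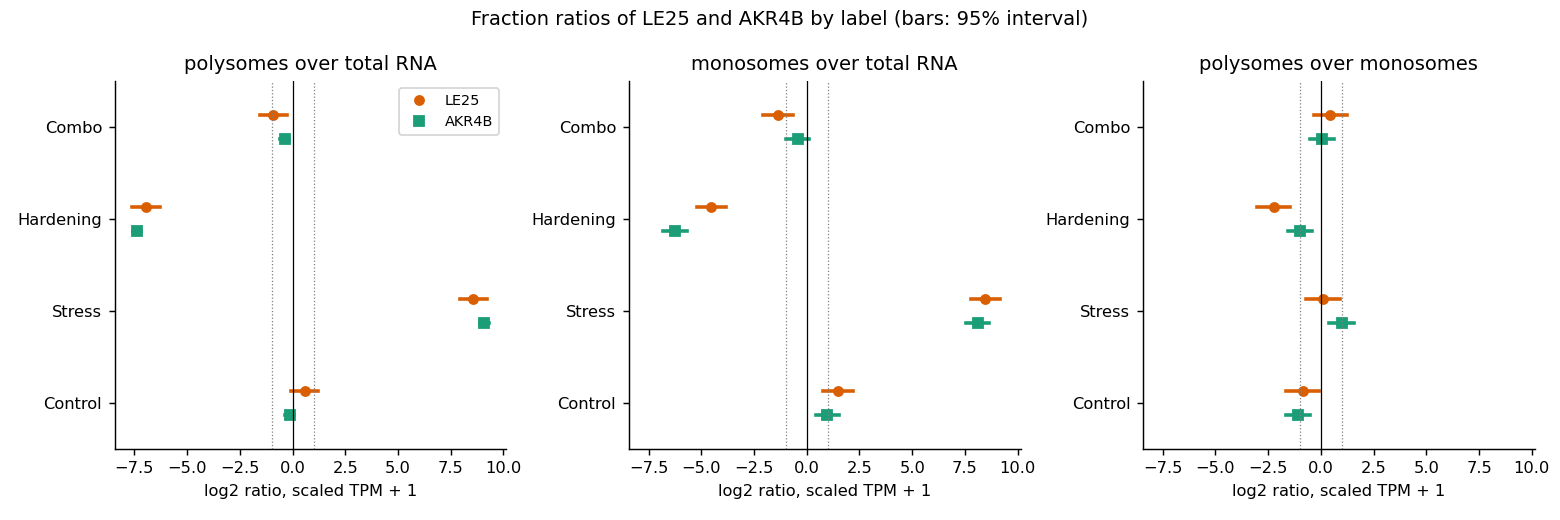
Log2 ratio (points) with 95% interval (bars) of LE25 and AKR4B between fractions, by label. Under Combo and Control the ratios lie between -1.36 and 1.48, whereas under the labels Hardening and Stress the ratios to total RNA lie between -7.38 and 9.08.

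Monosome to total ratios differed more between Combo and Control. The Control and Hardening libraries of total RNA that enter such ratios were also used to choose the genes. A choice for low Control levels in total RNA favours a higher ratio in Control and a negative difference between Combo and Control. The calls in these directions are therefore a description. LE25 in Control stood at 3.20 and 1.46 TPM in monosomes and at 1.54 and 2.66 TPM in total RNA, where the pseudocount weighs most. LE25 was Down in Combo, at -1.36 (SE 0.32, limma adjusted p = 0.00997, with 8.02% of the 20001 transcripts Down), and this call was lost at -1.08 without Combo monosome library 2. It was Up in Control, at 1.48 (SE 0.32, limma adjusted p = 0.00416, with 8.35% Up), a value that was 0.08 without the library factors. AKR4B had -0.43 in Combo (95% interval -0.98 to 0.12) and 0.98 in Control (95% interval 0.42 to 1.53, limma adjusted p = 0.0109). The difference between Combo and Control was Down for LE25 at -2.84 (SE 0.45, limma adjusted p = 0.00224) and for AKR4B at -1.40 (SE 0.35, limma adjusted p = 0.0209), with 4.5% of transcripts Down. Without the library factors these differences were -1.90 for LE25, still called, and -0.19 for AKR4B, not called, and AKR4B had -0.70 in Control. The call of AKR4B was also lost without Combo monosome library 2 (-0.96), Combo total library 1 (-1.56) or 2 (-1.48), or Control total library 1 (-1.44) or 2 (-1.48). Under the label Hardening the ratios were -4.53 and -6.25 (19.8% of transcripts Down), and under Stress 8.47 and 8.10 (18.5% Up).

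Polysomes and monosomes were compared with each other by label, and both fractions carry the same label conflict. Whether libraries of the same label came from the same plants was not tested. In Combo the log2 ratio of polysomes to monosomes was 0.45 for LE25 (95% interval -0.34 to 1.24) and 0.06 for AKR4B (95% interval -0.52 to 0.64), and neither passed the test. Few transcripts did, with 0.31% Up and 0.04% Down. In Control it was -0.86 for LE25 (95% interval -1.65 to -0.07, limma adjusted p = 0.111) and -1.09 for AKR4B (SE 0.26, limma adjusted p = 0.013). AKR4B was Down, as were 6.68% of the 17644 transcripts, but not without Control polysome library 1 (-1.05) or Control monosome library 1 (-0.94). In libraries labelled Hardening LE25 was Down, at -2.24 (SE 0.36, limma adjusted p = 0.00267, 4.16% Down), and AKR4B had -0.997 and was not called. Those labelled Stress had 0.09 and 0.98, neither called, with 3.03% of transcripts Up and 3.24% Down.

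The 2 genes followed each other closely over the 24 libraries. On log2 values of all fractions their Pearson correlation was 0.982, and each was the transcript most like the other among 878 candidates that carried a gene symbol and averaged 10 TPM or more. The libraries share conditions and fractions, so the coefficient describes them and has no p-value. Both genes were chosen for their rise in total RNA of hardened leaves, so a high correlation between them was favoured by the choice. DIG3 (0.970), PP2C-2 (0.966), IPMS2 and MSRA (0.964 each) came next for LE25. PP2C proteins are phosphatases, some of which restrain abscisic acid signalling, and whether PP2C-2 does so was not tested. PP2C-2 had 770 and 707 TPM in total RNA of Combo, against 48.1 and 47.1 TPM in Control. IPMS2 (0.977), MSRA (0.975), DHS (0.974) and ca3 (0.973) came next for AKR4B. The order depended on the scale, as 2 of the 5 closest transcripts remained for each gene when TPM were not scaled. Per length, LE25 had a higher TPM than AKR4B in 3 of the 24 libraries.

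LE25 was set beside a list of LEA and other small proteins known from drought and abscisic acid responses, among them the lipid transfer proteins LE16 and TSW12. Of 20 symbols looked for, 10 were in the table, with 1 transcript each and LE25 among them. In total RNA, Combo_vs_Stress had 3 of these 10 Up (LE25, TAS14 and ASR3), 3 Down (Asr4, LE16 and ER5) and 4 not called, with a median log2 change of 0.22 against 0.02 over all transcripts, of which 15.4% were Up and 20.3% Down. The count Down was 2 without the library factors, since ER5 then had -0.94. The count Up and the median include LE25, whose rise was favoured by the choice of the genes.

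TAS14, a dehydrin induced by salt and abscisic acid, had 262 and 263 TPM in Combo, 93.1 and 107 TPM in Hardening, 4.60 and 6.05 TPM in Stress, and 14.3 and 14.6 TPM in Control. Its log2 change was 5.14 in Combo_vs_Stress (SE 0.12, limma adjusted p = 8.03e-07), 1.42 in Combo_vs_Hardening and -1.40 in Stress_vs_Control, called Up, Up and Down. TAS14 thus had the same order of conditions in total RNA as LE25. ASR3, of the abscisic acid, stress and ripening family, had 113 and 133 TPM in Combo, 157 and 155 TPM in Hardening, 3.06 and 3.27 TPM in Stress, and 1.65 and 1.36 TPM in Control. Its log2 change in Combo_vs_Stress was 4.65 (SE 0.12, limma adjusted p = 9.54e-07). On polysomes, Combo_vs_Control was 3.48 for TAS14 and 5.23 for ASR3, both Up.

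Asr4, of the same family as ASR3, was Down by the same test at -3.49, with 38.9 ± 4.39 TPM in Combo and 372 ± 16.2 TPM in Stress. LE16 had -2.24, and ER5, an LEA protein, had -1.20 in Combo_vs_Stress but 1.70 in Combo_vs_Hardening, where 2 of the 10 were Up (ER5 and TAS14), against 1.91% of all transcripts. LEA14, the most abundant of the list after LE25, had a log2 change of -0.24 in Combo_vs_Stress and was not called.

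Of 28 symbols of aldehyde and redox enzymes, 16 were in the table with 19 transcripts, of which 17 could be tested. Combo_vs_Stress had 3 Up (AKR4B, APX2 and APX1), 6 Down and 8 not called, with a median log2 change of -0.29, beside 15.4% Up and 20.3% Down over all transcripts. Without the library factors 5 were Up and 4 Down. The ascorbate peroxidases APX2 and APX1, which remove hydrogen peroxide, rose by 1.98 and 1.33 on the log2 scale. The catalases cat1 and CAT2, which do the same in peroxisomes, fell, at -5.92 and -1.90, and cat1 had 24.4 ± 1.53 TPM in Combo against 1279 ± 46.9 TPM in Stress. DHAR1, a dehydroascorbate reductase, had -1.72, and the 2 FESOD transcripts of iron superoxide dismutase -1.23 and -1.03, which were not called without the library factors (-0.96 and -0.76). No other member of this list changed as much in the upward direction as AKR4B. Its place, and its part in the count Up, were favoured by the choice, since AKR4B was picked for its rise in hardened leaves.

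**Figure D5:**
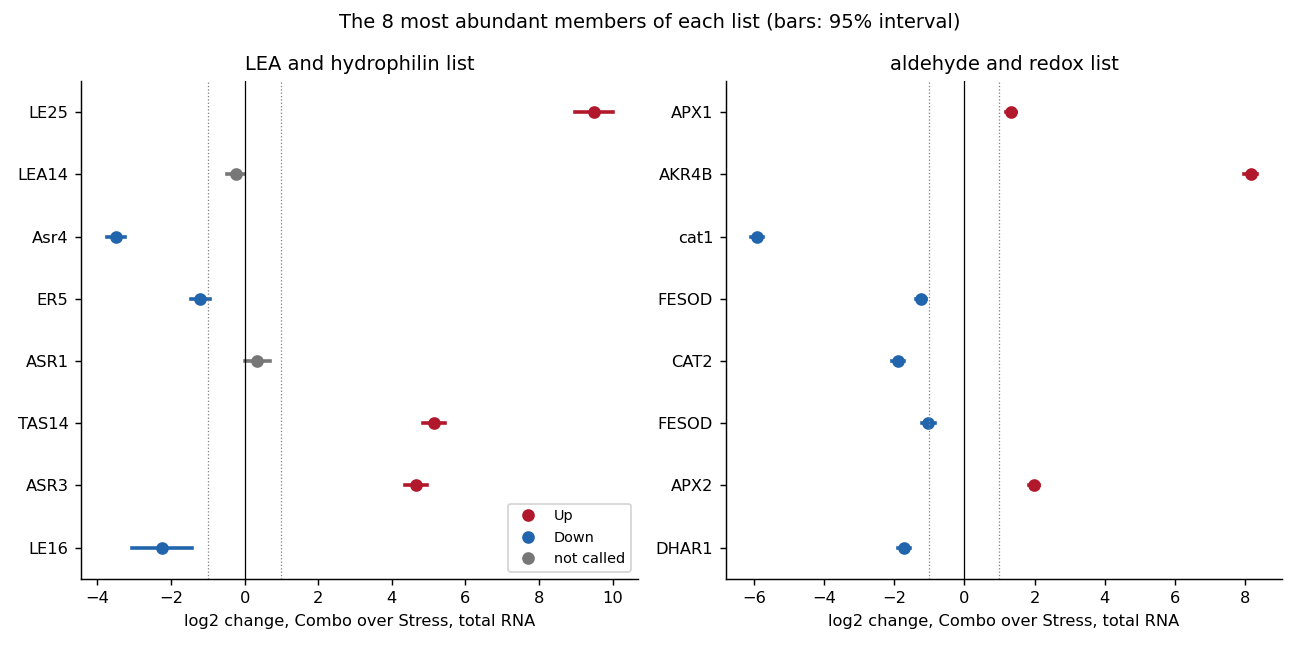
Log2 change of Combo over Stress in total RNA (points) with 95% intervals (bars) for the 8 most abundant transcripts of the LEA list and of the aldehyde and redox list, coloured by call. LE25 (9.49) and AKR4B (8.16), which were chosen for their rise in hardened leaves, lie farthest to the right. Each list has members on both sides of 0.

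Of 7 transcripts of genes that make, break down or answer abscisic acid, 5 could be tested in Combo_vs_Stress, with 2 Up and 2 Down, beside 15.4% Up and 20.3% Down over all transcripts. NCED1, the rate-limiting enzyme of abscisic acid synthesis, had 169 and 181 TPM in Combo, 76.0 and 93.9 TPM in Hardening, 52.6 and 55.3 TPM in Stress, and 19.9 and 27.1 TPM in Control. Its log2 change was 1.42 in Combo_vs_Stress, 1.07 in Combo_vs_Hardening and 1.09 in Stress_vs_Control, all Up. NCED1 therefore rose with 2 h at 0 °C in unhardened leaves, where LE25 had -0.58 and AKR4B -1.13. AREB1, a transcription factor of abscisic acid responses, was Up at 2.75 in the 1 of its 2 transcripts that could be tested, while ZEP and CYP707A1, which act in synthesis and breakdown, were Down at -1.98 and -2.29.

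Regulators of the cold response had 4 of 5 transcripts tested, with 1 Up and 2 Down beside the same shares over all transcripts. ICE1A, an upstream activator of the CBF genes, was Up in Combo_vs_Stress at 1.92. CBF1, the cold-induced transcription factor, was Down at -4.17 and DREB2 at -2.70. In total RNA CBF1 had 10.9 and 12.5 TPM in Combo, 3.23 and 2.60 TPM in Hardening, 195 and 186 TPM in Stress, and 12.2 and 8.17 TPM in Control. Its highest libraries were thus the ones in which LE25 and AKR4B were lowest.

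Genes beside the 2 loci were followed in the order of the SLM_r2.1 annotation, which is another assembly than the one the authors used, so no positions are given. LOC101264804 lies next to AKR4B, and their spans overlap there, so that reads could have been shared between them. It had 116 and 118 TPM in total RNA of Combo, 98.5 and 103 TPM in Hardening, 0.231 and 0.740 TPM in Stress, and 1.71 and 0.925 TPM in Control, with a log2 change of 6.15 in Combo_vs_Stress (SE 0.22, limma adjusted p = 2.86e-06). In the 12 libraries where AKR4B was high, LOC101264804 stood at 2.74 to 14.8% of it. On the other side of AKR4B, LOC101250673 was Down at -2.18. No gene overlapped LE25. Its neighbour LOC101250176 had 20.2 and 14.4 TPM in Combo, 5.28 and 4.94 TPM in Hardening, 0.067 and 0 TPM in Stress, and 0 TPM in both Control libraries, and was Up in Combo_vs_Stress (3.98) and in Combo_vs_Hardening (1.57). The neighbour on the other side, LOC101249875, was Up at 1.71 from low levels (2.67 and 2.97 TPM in Combo, against 0.0834 and 0.0711 TPM in Stress). The genes placed second on either side of the loci, LOC101252539, LOC101253335, LOC101250383 and LOC101251266, were not called in Combo_vs_Stress, although LOC101253335 was Up at 1.08 without the library factors.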

How the data were processed

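Poly(A) RNA of leaves was sequenced as total RNA and as monosome and polysome fractions of a sucrose gradient. The authors filtered the reads and quantified them with kallisto against transcripts of the SL3.1 assembly, and deposited TPM, which are the estimates divided by length and scaled to 1000000 per library. Gene counts were not used here, so tests that model counts were not possible, and the fit for TPM given in the plan was used. No deposited column was left out. Groups follow the labels.

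To scale libraries, log ratios to a reference library were averaged after trimming (30% of ratios and 5% of levels trimmed at each end, transcripts that averaged at least 1 TPM). Those whose scaled TPM averaged at least 1 were tested on log2(scaled TPM + 1) with limma 3.58.1 in R 4.3.3 (group means, trended moderation, Benjamini-Hochberg adjustment over all transcripts of the fit). Total RNA, polysomes and monosomes were fitted separately for conditions, and in pairs for ratios. The fits were run on simulated data with few changed transcripts and independent noise. Shifts as broad as those between these libraries were not simulated. Means and SDs are of TPM as deposited. Python 3.11.15 with pandas 2.3.3 made the tables, and matplotlib 3.10.9 the plots.

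The 2 genes and the lists were chosen with earlier results of these data known. Named besides the 2 genes were the 5 transcripts with the most similar pattern over 24 libraries (symbol not starting with LOC, mean of at least 10 TPM), at most the 8 most abundant transcripts of each list, the leaf and organ markers, and the genes beside the loci, which were chosen from their position only. Symbols came from RefSeq names of assembly SLM_r2.1, by accession with the same version for 4019 transcripts and without it for the rest. Comparisons of protein family and promoter motifs were not run.

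Alternatives were unscaled TPM, a smaller pseudocount (0.1), no filter, a replicate block, all 24 libraries in one fit, sums over a gene's transcripts (total RNA only), the omission of each library and, chosen after seeing the data, Combo and Control libraries alone.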

Additional observations from a re-analysis of the deposited data

Results flagged for a closer look

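The interaction of hardening and 2 h at 0 °C in total RNA was 1.57 for LE25 and 1.07 for AKR4B on the log2 scale. It contains the libraries that chose the genes and is given as a description. Both values fell short of a call under some alternatives.

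The polysome to total ratio of LE25 differed between Combo and Control by -1.49, a call that was lost under most alternatives (-0.81 without the library factors). Its monosome to total ratio differed by -2.84 (-1.90 without the factors, still called). That of AKR4B differed by -1.40, which was -0.19 and not called without the factors. These differences include Control libraries of total RNA, which took part in the choice of the genes, and that choice favours their negative sign.

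Ratios that involve libraries labelled Hardening or Stress differed far more, and the conflict of these labels with the values, described above, bears on all of them. For polysomes to total RNA, Combo_vs_Stress was -9.49 for LE25 and -9.46 for AKR4B, and Stress_vs_Control 7.995 and 9.23. For monosomes to total RNA, Combo_vs_Stress was -9.83 for LE25 and -8.53 for AKR4B, and Stress_vs_Control 6.99 and 7.13. Limma adjusted p-values of these differences were at most 1.89e-06. Stress_vs_Control includes Control libraries of total RNA that took part in the choice of the genes. Hardening_vs_Control was -7.52 for LE25 and -7.23 for AKR4B for polysomes to total RNA, and -6.01 and -7.23 for monosomes to total RNA. Its total RNA part is the comparison that chose the genes, so these values are a description with no test. Their cause was not tested.

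Groups of 2 libraries cannot be checked for a library far from the others.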

How the results depend on the processing

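Over 734 alternative values for 72 results, 673 kept their direction and their side of the threshold. The count includes the replicate block and the fit with no filter, which could not move a log2 change. It also includes sums over a gene's transcripts, although LE25 and AKR4B had 1 transcript each. The count therefore overstates how far the results were tried. Combo_vs_Control and Combo_vs_Stress of both genes in total RNA, and Combo_vs_Control in polysomes and monosomes, kept their call under every alternative run. The cause of the changes below was not tested.

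Without the library factors, the median log2 change over all transcripts moved to 1.44 in polysomes and 1.57 in monosomes for Combo_vs_Control, and the share of Up among called transcripts to 92.8% and 94.1%, from 46.2% and 53.6%. In total RNA that share moved to 56.1% for Combo_vs_Stress, from 43.1%. On that scale AKR4B had 0.93 for the interaction, 0.78 for Hardening_vs_Control and -0.77 for Combo_vs_Stress in polysomes, and 0.42 for Hardening_vs_Control in monosomes, and LE25 had 0.39 for Combo_vs_Stress in polysomes. Polysome to total ratios were then -1.35 (Combo), -0.54 (Control) and -0.81 (Combo_vs_Control) for LE25 and -1.58 (Control) and 0.77 (Combo_vs_Control) for AKR4B. Monosome to total ratios were 0.078 (Control) for LE25 and -0.70 (Control) and -0.19 (Combo_vs_Control) for AKR4B. Polysome to monosome ratios were -0.43 (Stress) for LE25 and -0.88 (Control) for AKR4B.

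With a pseudocount of 0.1, the polysome to total ratio of LE25 in Combo_vs_Control was -1.71 and no longer called, and AKR4B passed the size of a call for monosomes to total RNA in Control (1.06) and for polysomes to monosomes under Hardening (-1.14). With no filter, the calls of LE25 were lost for Hardening_vs_Control in monosomes (1.67) and for polysomes to total RNA in Combo_vs_Control (-1.49). With all 24 libraries in one fit, the interactions were 1.49 and 1.01 (adjusted p = 0.139 for both genes), the LE25 polysome to total ratio in Combo_vs_Control was -1.63 and not called, and AKR4B was called at -1.02 for polysomes to monosomes under Hardening. With Combo and Control libraries alone, the calls of LE25 for polysomes to total RNA (-1.49) and of AKR4B for monosomes to total RNA (-1.40) in Combo_vs_Control and for polysomes to monosomes in Control (-1.04) were lost. Of the 5 nearest transcripts by pattern, 2 were shared without the factors for each gene.

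With single libraries left out, LE25 ranged from 1.29 to 1.86 for the interaction, -0.16 to 0.71 for Hardening_vs_Control in polysomes and 1.24 to 2.13 in monosomes, 0.12 to 1.06 for polysomes to total RNA in Control and -1.97 to -1.03 in Combo_vs_Control, -1.63 to -1.08 for monosomes to total RNA in Combo, and -1.29 to -0.41 for polysomes to monosomes in Control. AKR4B ranged from 0.99 to 1.15 for the interaction, -0.86 to 0.010, 0.83 to 1.13 and -1.83 to -0.96 for monosomes to total RNA in Combo, Control and Combo_vs_Control, and -0.39 to 0.50, 0.71 to 1.25 and -1.22 to -0.94 for polysomes to monosomes in Combo, Stress and Control. A group left with 1 library was assumed to vary like the others.

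The replicate block changed no call of the 70 results tested. It could not move a log2 change, since each group holds 1 library of each number, and only the p-values could differ. The interactions stayed at 1.57 and 1.07, with limma adjusted p = 0.0154 and 0.00202. Labels do not say that a number marks shared plants. Same-numbered libraries deviated together in total RNA (mean r = 0.321 across transcripts over 6 pairs of conditions) but not in polysomes (-0.0012) or monosomes (-0.0354). Precision is limited by 2 libraries per group.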
